A study of Mus musculus with 2 samples.

Results

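The genes described here make, or respond to, prostaglandins, thromboxane and leukotrienes, the lipid mediators derived from arachidonic acid. They are Ptgs1, Ptgs2, Ptges, Hpgds, Tbxas1, Ptger2, Ptger4, Alox5, Alox5ap and Ltc4s. They were chosen by symbol, each matched exactly 1 mouse feature, and together they are 10 of the 33696 mouse features of the count matrix. The levels are UMI counts (counts of distinct captured transcripts) in leukocytes sorted for CD45, the leukocyte surface marker, from MC38 tumours, a transplantable colon adenocarcinoma line grown under the skin.

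All mice carried human Fcγ receptors, the receptors that bind the constant (Fc) region of IgG. The antibodies bind mouse GITR, a costimulatory T cell receptor, and have a human IgG1 Fc region. The 100 µg doses were injected 2 times, 3 days apart, and tumours were taken 4 days post treatment. The library analysed held 6 mice: 2 given GA-aFuc, labelled as an agonist with an enhanced Fc; 2 given GITR/Syn GA-aFuc, labelled as a non-agonist with an enhanced Fc; 1 given N297A, labelled as an agonist with a null Fc; and 1 Untreated mouse given PBS. No sex or age is given in the labels. Xist, the RNA of the inactive X chromosome, stood at 567 CPM (UMIs per 1000000 UMIs of the cells counted) in GA-aFuc mouse 1 and at 551 CPM in GITR/Syn GA-aFuc mouse 1, and between 1.64 and 1.98 CPM in the other 4 mice. Uty, a gene of the Y chromosome, stood at 0.473 CPM in GA-aFuc mouse 1 and 0.319 CPM in GITR/Syn GA-aFuc mouse 1. In the other 4 mice Uty stood at 55.0 to 71.3 CPM. By these 2 genes the 2 mice with high Xist read as female and the other 4, with N297A and Untreated among them, as male. Mouse numbers are names only.

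The authors' table annotated 10476 cells of this library, 1540 to 1925 per mouse, with a median of 12075 UMIs per cell and 1.72e+07 to 2.58e+07 UMIs per mouse. In the annotation, 34 barcodes occur in both libraries of the study. The annotated types carried their own markers: the 7 macrophage markers summed to 22280 CPM in macrophages and 11160 CPM in monocytes, and the 6 monocyte markers to 276 CPM in macrophages and 5307 CPM in monocytes. The 24 cells called Tregs also carried macrophage markers, at 10540 CPM, and their levels are given with that reservation. Cell type and cluster levels are described without a test, since the cells were grouped by the same expression values.

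Cyclooxygenases turn arachidonic acid into prostaglandin H, the common precursor. Terminal synthases then make prostaglandin E, prostaglandin D or thromboxane, and prostaglandin E acts through G protein-coupled receptors. A separate branch starts with 5-lipoxygenase, which with its activating protein makes leukotriene A, and leukotriene C synthase conjugates that product with glutathione. Ptgs1 is the form that many cells express steadily, and Ptgs2 is the form that inflammatory signals switch on in monocytes and macrophages.

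Promoter sequences are shown for Ptgs2, the 1 gene of the set whose level passed a treatment test, and for Ptgs1 and Hpgds, both highest in macrophages. They are from RefSeq on build GRCm38.p6 and run from 250 bases before to 50 bases after the annotated start, 300 bases each. The counts were made on another build, GRCm39. Such sequences were found for 9 of the 10 genes, and not for Alox5ap. Capitals mark matches to motifs searched on both strands. The motifs, chosen after the sequences were read, were the 4 spelled out after the sequences, TATAAA and an NF-kB-type site.
Ptgs2 (chr1:150099781-150100080, plus strand): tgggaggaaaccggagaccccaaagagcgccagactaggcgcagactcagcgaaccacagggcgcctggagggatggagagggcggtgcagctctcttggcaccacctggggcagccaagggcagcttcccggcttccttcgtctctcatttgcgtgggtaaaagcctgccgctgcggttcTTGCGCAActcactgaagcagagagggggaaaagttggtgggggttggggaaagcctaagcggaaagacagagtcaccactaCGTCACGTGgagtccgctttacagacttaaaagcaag
Ptgs1 (chr2:36230176-36230475, plus strand): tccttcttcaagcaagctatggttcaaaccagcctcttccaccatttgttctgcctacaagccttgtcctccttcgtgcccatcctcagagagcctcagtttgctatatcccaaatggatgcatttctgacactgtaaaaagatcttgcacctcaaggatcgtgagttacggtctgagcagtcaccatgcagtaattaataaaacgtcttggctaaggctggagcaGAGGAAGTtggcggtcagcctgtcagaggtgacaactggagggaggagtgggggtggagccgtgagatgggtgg
Hpgds (chr6:65144681-65144980, minus strand): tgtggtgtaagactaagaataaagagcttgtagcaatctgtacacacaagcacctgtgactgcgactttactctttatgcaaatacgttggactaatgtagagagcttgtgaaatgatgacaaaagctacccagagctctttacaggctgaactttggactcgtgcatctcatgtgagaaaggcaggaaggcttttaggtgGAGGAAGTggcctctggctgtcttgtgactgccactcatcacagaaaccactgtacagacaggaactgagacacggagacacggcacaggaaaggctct
In Ptgs2 the run CGTCACGTG holds TGACG, the core bound by cAMP response element factors, on the reverse strand. It overlaps CACGTG, the E-box. These 2 matches begin at bases 14 and 17 counted from the annotated start, so they lie after it. TGACG was in 21.0% of 27025 promoters of this length and CACGTG in 7.24%. The first capital run of Ptgs2 is TTGCGCAA, the palindrome that C/EBP factors bind, which was in 0.185% of promoters. That run begins at base −69, before the start. Ptgs1 and Hpgds both held GAGGAAGT, a site of the kind bound by the myeloid factor PU.1, which was in 3.28% of promoters. It was in 2 of the 9 promoters found here, and that of Tbxas1, also highest in macrophages, had no match to it. A match describes the letters of the window and shows no binding.

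Prostaglandin synthases divided between macrophages and monocytes. Ptgs1, the constitutive cyclooxygenase, averaged 71.6 ± 34.1 CPM (SD, n = 6 mice) in macrophages and 14.2 ± 7.43 CPM in monocytes. The ranges over mice did not overlap, at 43.1 to 131 CPM in macrophages against 7.21 to 24.2 CPM in monocytes. Type 2 conventional dendritic cells (cDC2) stood at 5.77 CPM, NK cells at 3.40 CPM and CD8 T cells at 2.66 CPM, with overlapping ranges. Ptgs1 had a UMI in 46.3% of 5725 macrophages (exact 95% interval 44.96 to 47.56%) and in 2.03% of 542 CD8 cells, at median depths of 14327 and 8505 UMIs. The CD8 share is taken here as the level that free RNA can give. Intervals cover counting error only.

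Ptgs2, the inducible cyclooxygenase, was highest in monocytes. It averaged 162 ± 65.5 CPM in monocytes (78.2 to 242 CPM over mice), 36.9 ± 15.9 CPM in cDC2 and 34.2 ± 20.7 CPM in macrophages. Monocytes stood above cDC2 in 6 of 6 mice with no overlap, and cDC2 and macrophages overlapped. CD8 cells had 8.88 ± 11.9 CPM and NK cells 4.57 ± 4.29 CPM. A Ptgs2 UMI was found in 38.3% of 3119 monocytes (36.6 to 40.0%), 19.8% of macrophages and 3.32% of CD8 cells.

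Ptges, the inducible prostaglandin E synthase, was detected at a low level in these cells. It averaged 7.28 ± 2.97 CPM in monocytes and 3.32 ± 2.15 CPM in macrophages, and monocytes were above macrophages in 6 of 6 mice although the ranges overlapped. Ptges had 219 UMIs in 160 of 3119 monocytes, and 5 UMIs in 268 cDC2. In cells thinned to 3000 UMIs, Ptges was found in 3.45% of the 724 monocytes with a Ptgs2 UMI and in 1.81% of those without, where 25 cells held both. In macrophages the shares were 2.12% of 424 and 0.836% of the rest. These shares come from cells pooled over mice, so they describe co-detection and carry no test.

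Hpgds, which makes prostaglandin D in blood-derived cells, was highest in macrophages. They had 173 ± 17.8 CPM (156 to 207 CPM), monocytes 42.4 ± 7.47 CPM and cDC2 36.6 ± 17.4 CPM. All 6 mice had macrophages above monocytes with no overlap. Hpgds had a UMI in 81.7% of macrophages, 21.7% of monocytes and 6.64% of CD8 cells. Tbxas1, thromboxane synthase, averaged 241 ± 43.5 CPM in macrophages, 191 ± 45.9 CPM in monocytes and 121 ± 43.9 CPM in cDC2, in that order in 6 of 6 mice, and each range overlapped the next. It stood at 8.62 CPM in CD8 cells and 7.76 CPM in NK cells.

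The 2 prostaglandin E receptors were spread more widely. Ptger4 averaged 59.4 ± 12.6 CPM in cDC2, 55.3 ± 9.93 CPM in monocytes, 41.8 ± 7.17 CPM in macrophages, 20.8 ± 7.85 CPM in CD8 cells and 14.9 ± 8.87 CPM in NK cells. Macrophages lay above CD8 cells without overlap, while the first 3 types overlapped. In the 55 mature regulatory dendritic cells (mregDC), Ptger4 stood at 162 CPM, from 92 UMIs, with a UMI in 65.5% of cells (51.4 to 77.8%). Ptger2 was low in all types: 9.43 ± 8.04 CPM in CD8 cells, 8.43 ± 3.64 CPM in monocytes and 6.99 ± 2.69 CPM in macrophages, all overlapping. In cDC2, Ptger2 had 0 UMIs in 268 cells, whose UMIs allow up to 0.950 CPM, while the 48 cDC1 held 16 Ptger2 UMIs, or 18.8 CPM.

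Genes of the leukotriene branch were highest in different annotated types. Alox5ap, the activating protein of 5-lipoxygenase, averaged 549 ± 62.0 CPM in cDC2, 427 ± 60.5 CPM in monocytes and 379 ± 56.3 CPM in macrophages, in that order in 6 of 6 mice. It stood at 13.9 CPM in CD8 cells and 8.49 CPM in NK cells, and at 654 CPM in 27 plasmacytoid dendritic cells. Within dendritic cells, Alox5ap was found in 100% of 48 cDC1 and 97.4% of cDC2, against 21.8% of the 55 mregDC. Alox5, 5-lipoxygenase itself, had 43 UMIs in 5725 macrophages, 31 in 3119 monocytes and 0 in 542 CD8 cells, which allows up to 0.549 CPM there. Its averages were 0.516 CPM in macrophages and 1.04 CPM in monocytes.

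Alox5 was highest in NK cells, at 6.49 ± 4.04 CPM (1.62 to 11.1 CPM), from 44 UMIs in 604 cells. In author cluster 48 of NK cells it stood at 19.6 CPM, with a UMI in 17.5% of 63 cells, against 4.77 CPM and 3.51% in the other NK cells. Of 6 mast cell markers, Cpa3, Mcpt4 and Ms4a2 had 0 UMIs in cluster 48. Cma1 had 3 UMIs there, or 3.27 CPM, against 15.2 CPM in the other NK cells, and Tpsb2 had 2 UMIs, or 2.18 CPM, against 1.28 CPM. Kit, which some immature lymphoid cells also express, stood at 76.2 CPM, against 23.5 CPM in the other NK cells. Ltc4s, leukotriene C synthase, averaged 23.8 ± 3.31 CPM in cDC2 (20.3 to 29.3 CPM), 7.24 ± 2.74 CPM in macrophages and 5.90 ± 1.05 CPM in monocytes. The cDC2 range lay above macrophages in 6 of 6 mice without overlap, and cDC2 cluster 46 reached 36.9 CPM.

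**Figure D1:**
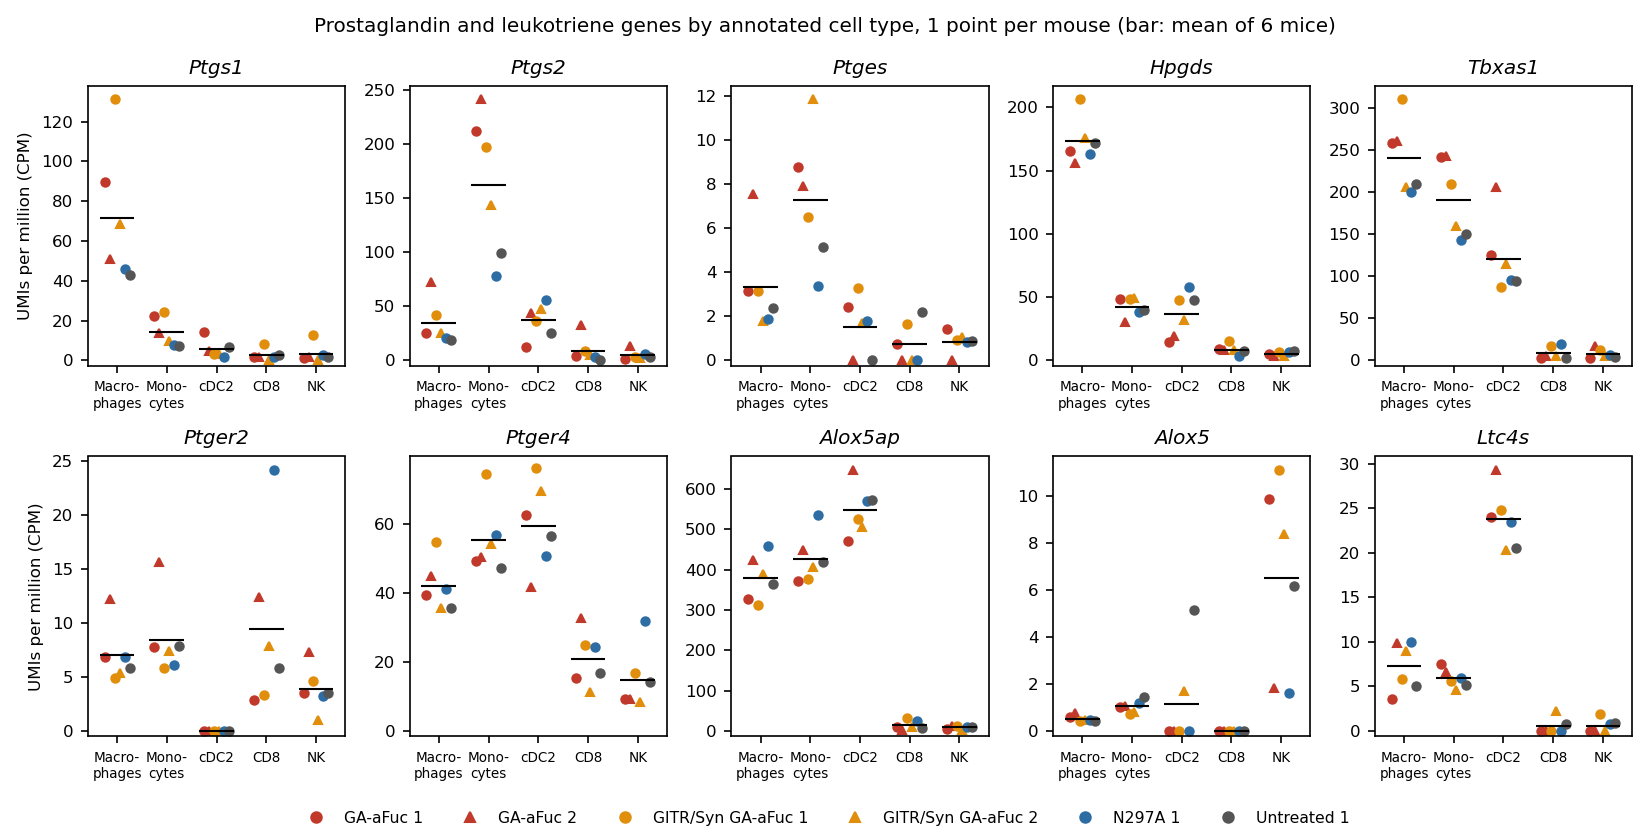
CPM of each gene (y axis) in 5 annotated cell types (x axis), with 1 point per mouse and a bar at the mean of 6 mice. Ptgs1 and Hpgds peak in macrophages (means 71.6 and 173 CPM), Ptgs2 in monocytes (162 CPM), Ltc4s in cDC2 (23.8 CPM) and Alox5 in NK cells (6.49 CPM).

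Cells outside the annotation were looked at for Alox5, since so few annotated cells held it. In 178 unannotated barcodes with at least 3 of 6 mast cell markers, Alox5 stood at 166 CPM, Alox5ap at 832 CPM and Hpgds at 231 CPM. In 72 barcodes with at least 4 of 5 neutrophil markers, Ptgs2 stood at 543 CPM. Of those 72, 40 had the hashtag of GA-aFuc mouse 2, where Ptgs2 stood at 1088 CPM. Without them it stood at 289 CPM, from 93 UMIs in 32 barcodes.

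**Figure D2:**
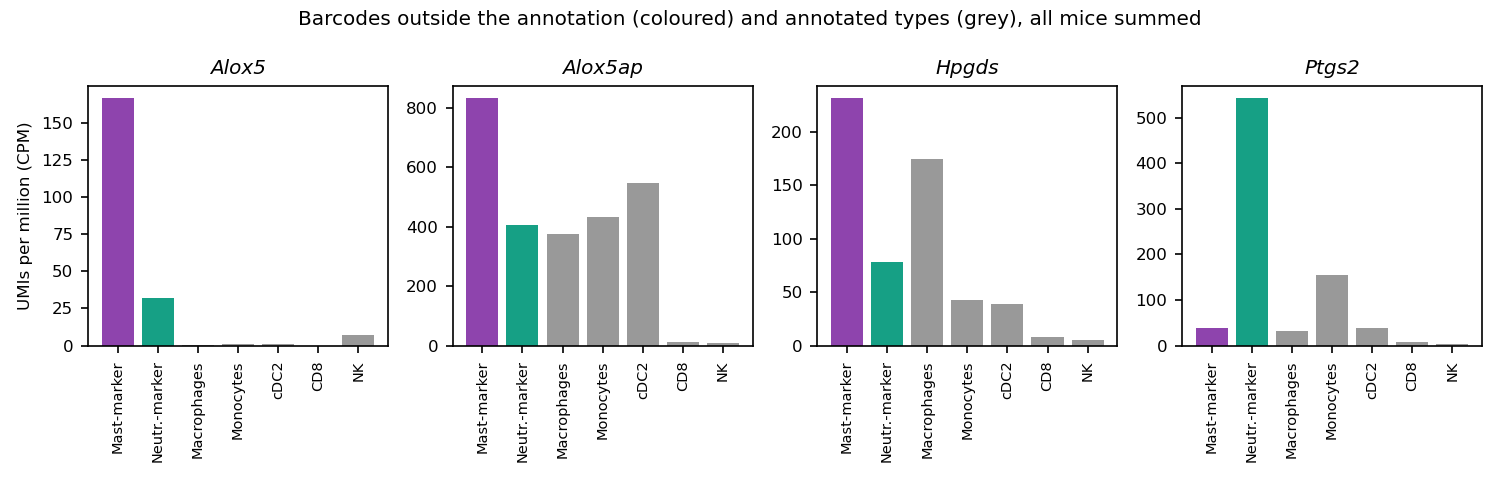
CPM (y axes from 0) of Alox5, Alox5ap, Hpgds and Ptgs2, summed over mice, in barcodes outside the annotation with mast cell or neutrophil markers (coloured bars) and in 5 annotated types (grey bars, x axis). Alox5 stands at 166 CPM in mast-marker barcodes and at 6.91 CPM in NK cells, the highest annotated type.

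Within a cell type the level of these genes varied between author clusters. Among the 50 clusters with at least 50 cells, Ptgs2 was highest in monocyte cluster 0, at 479 CPM over 447 cells. Monocyte cluster 8 followed at 201 CPM and macrophage cluster 9 at 171 CPM. Ptges had the same first cluster and also ranked macrophage cluster 9 second, at 22.5 and 17.7 CPM. Ptgs1 was highest in macrophage clusters 12 (123 CPM), 30 (118 CPM) and 34 (115 CPM), and Tbxas1 in macrophage clusters 34 (328 CPM) and 28 (312 CPM). Macrophage cluster 9 was low in Ptgs1, at 15.6 CPM. Alox5ap was highest in monocyte cluster 54, at 958 CPM over 65 cells.

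Monocyte cluster 0 was led, against other monocytes, by Mmp12 (563 against 37.6 CPM), Inhba (693 against 50.2 CPM), Cxcl3 (284 against 21.7 CPM) and Nos2, the inducible nitric oxide synthase (552 against 47.0 CPM). These lead the cluster by the values that made it. Over the 50 clusters, the 3 genes of 8245 whose log2(CPM + 1) ran closest to Ptgs2 were Egr2 (Pearson r = 0.903), Cxcl2 (r = 0.902) and Il1rn (r = 0.894), all known as inducible genes of myeloid cells. For Ptgs1 they were Olfml3 (r = 0.926), Gna12 (r = 0.925) and Cd81 (r = 0.918), and for Hpgds Psd3 (r = 0.932), Gna12 (r = 0.929) and Cadm1 (r = 0.922). For Tbxas1 they were Ctsh, Ctss and Myof (r = 0.961 to 0.964), and for Alox5ap Spi1, the gene of PU.1 (r = 0.972), Il6ra and Ifi207. Ptges ran with Esd, Tarm1 and Slpi (r = 0.765 to 0.799), Ptger4 with Plxnc1, Myo9a and Grb2 (r = 0.812 to 0.857), and Ltc4s with Colgalt1, Hepacam2 and H2-DMb2 (r = 0.772 to 0.781). The lowest values were those of Ptger2, with Golph3l (r = 0.666), Ptgr1 and Sh3bp5, and of Alox5, with Gzmd (r = 0.537), Spp1 and Sulf2. Clusters share their cells' mice and depth, so these r describe likeness and have no p. The 50 clusters also span myeloid and lymphoid types. Alox5ap stood at 277 CPM or more in every monocyte and macrophage cluster, and at 43.3 CPM or less in those of CD8 and NK cells. A high r can come from that split and need not be particular to a pair of genes.

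The treatments were compared by summing counts per mouse and class and testing them with edgeR's quasi-likelihood test over all genes of the class. Only 1 gene of the set passed at an adjusted p under 0.05, Ptgs2 in monocytes. Its level was 212 and 242 CPM after GA-aFuc, 197 and 144 CPM after GITR/Syn GA-aFuc, 78.2 CPM after N297A and 99.5 CPM in the Untreated mouse. All 4 mice given an Fc-enhanced antibody lay above the other 2. Such a separation was found for 11.4% of 10199 monocyte genes. In the pooled contrast, the 4 Fc-enhanced mice against N297A and Untreated, Ptgs2 rose by 1.11 ± 0.16 log2 (edgeR adjusted p = 0.0125), where 0.344% of 11920 genes passed, 0.336% higher and 0.00839% lower. In GA-aFuc against N297A the log2 fold change was 1.49 ± 0.23 (edgeR adjusted p = 0.0168), where 0.579% of genes passed and 0.562% were higher. Against the Untreated mouse, GA-aFuc differed by 1.16 ± 0.23 log2 and did not pass (edgeR adjusted p = 0.104), where 0.176% of genes did. DESeq2 also called Ptgs2 in that comparison (adjusted p = 0.00545). The share of all genes that DESeq2 called there is not given, so no weight is put on that call. The 3 contrasts share mice.

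The pooled Ptgs2 call was lost when either of 2 mice was left out: without N297A the log2 fold change was 0.95 (adjusted p = 0.489), and without GITR/Syn GA-aFuc mouse 1 it was 1.02 (adjusted p = 0.0511). N297A and Untreated are 1 mouse each, so their spread is assumed to be like that of the treatments with 2 mice.

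**Figure D3:**
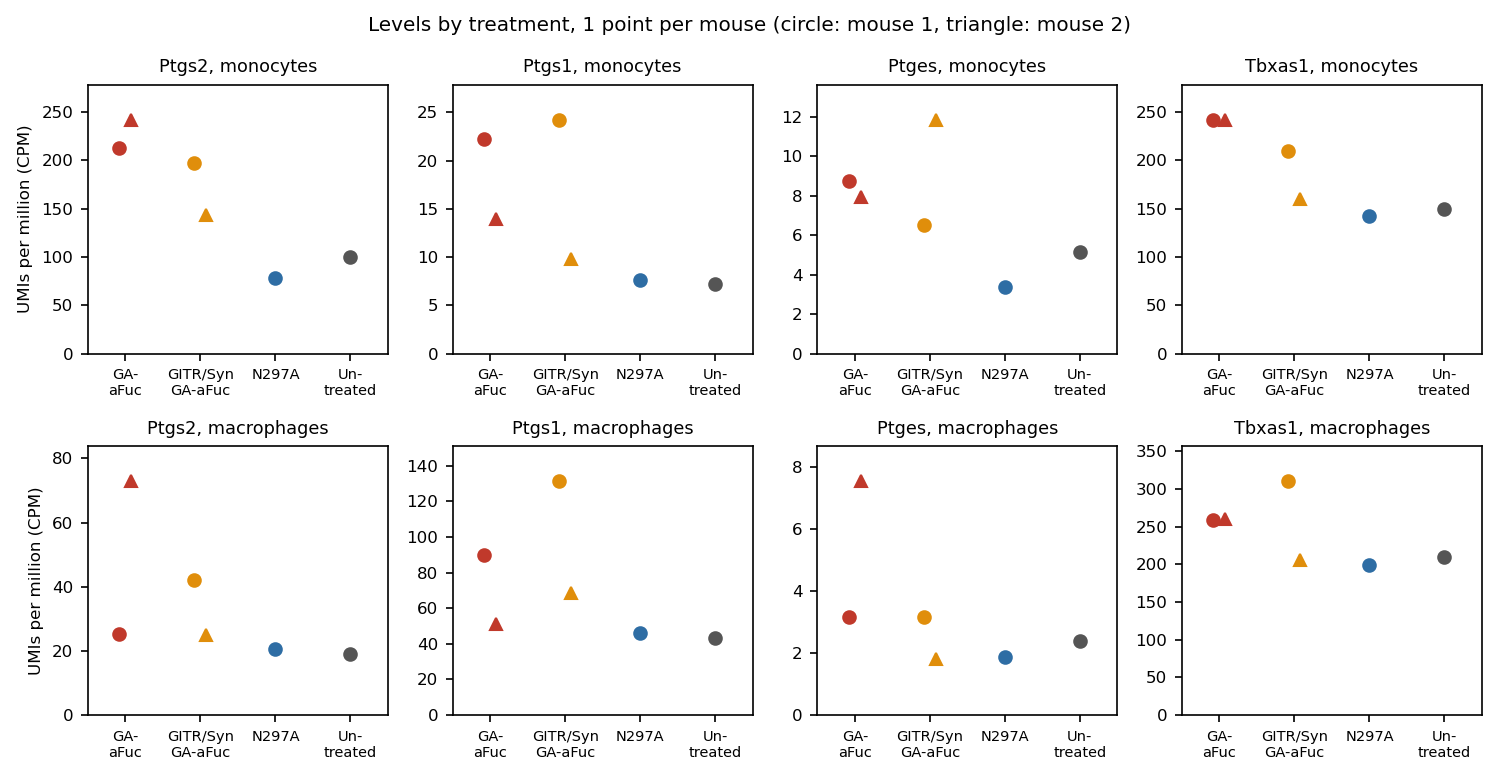
CPM (y axes, each from 0) of Ptgs2, Ptgs1, Ptges and Tbxas1 in monocytes (top) and macrophages (bottom) by treatment (x axis), with 1 point per mouse. In monocytes the 4 Fc-enhanced mice lie above N297A and Untreated for all 4 genes, for Ptgs2 at 144 to 242 CPM against 78.2 and 99.5 CPM. Of the 9 genes tested in monocytes only these 4 had this order, as did 11.4% of 10199 monocyte genes.

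The share of monocytes with a Ptgs2 UMI was 44.7 and 44.0% with GA-aFuc, 44.4 and 38.4% with GITR/Syn GA-aFuc, 28.7% with N297A and 33.9% in the Untreated mouse. After thinning to 3000 UMIs it was 27.1 and 30.02%, 25.7 and 21.8%, 16.5% and 19.0%, in the same order of mice. Both sets of shares were higher in all 4 Fc-enhanced mice than in the other 2. The tenth of monocytes with the most Ptgs2 UMIs held 61.2 to 65.1% of the gene's UMIs in each of the 6 mice. The single highest monocyte held 59 and 40 Ptgs2 UMIs after GA-aFuc, 29 and 34 after GITR/Syn GA-aFuc, 19 after N297A and 15 in the Untreated mouse.

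Cluster 0 made up 20.3 and 17.9% of monocytes with GA-aFuc, 16.9 and 12.0% with GITR/Syn GA-aFuc, 9.71% with N297A and 12.5% in the Untreated mouse, shares that overlap. Inside the cluster Ptgs2 stood at 550 and 615 CPM with GA-aFuc, 570 and 544 CPM with GITR/Syn GA-aFuc, 228 CPM with N297A and 251 CPM in the Untreated mouse. There all 4 Fc-enhanced mice lay above the other 2, while the Fc-enhanced treatments overlapped each other, and no test was run on this. In the monocytes outside cluster 0 the levels were 127 and 170 CPM, 129 and 88.0 CPM, 63.8 CPM and 78.1 CPM, in the same order. The groups did not overlap there. The share of all genes with this order was not counted inside or outside cluster 0. Both are parts of the same monocytes, so they are no separate evidence on Ptgs2. Without cluster 0 the pooled log2 fold change of Ptgs2 was 0.80 and did not pass (edgeR adjusted p = 0.389).

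Of 11 monocyte clusters with at least 10 cells in every mouse, 7 had Ptgs2 higher in all 4 Fc-enhanced mice than in N297A and Untreated, and 0 had the reverse. At least 7 such clusters were found for 9 of 10199 monocyte genes (0.0882%), a bar set by the Ptgs2 count itself. All genes with a mean of at least 3 CPM were counted. Genes with few UMIs can hardly show this order in clusters with as few as 10 cells in a mouse. The share is therefore no like-for-like background for Ptgs2, and nothing is read from it. Cluster 22 had 172 and 175 CPM with GA-aFuc, 194 and 74.9 CPM with GITR/Syn GA-aFuc, 36.8 CPM with N297A and 61.0 CPM in the Untreated mouse. Cluster 42 had no such order, with 48.5 and 12.1, 7.25 and 65.2, 33.7 and 14.98 CPM. Clusters of 1 mouse share its library and are not replicates.

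**Figure D4:**
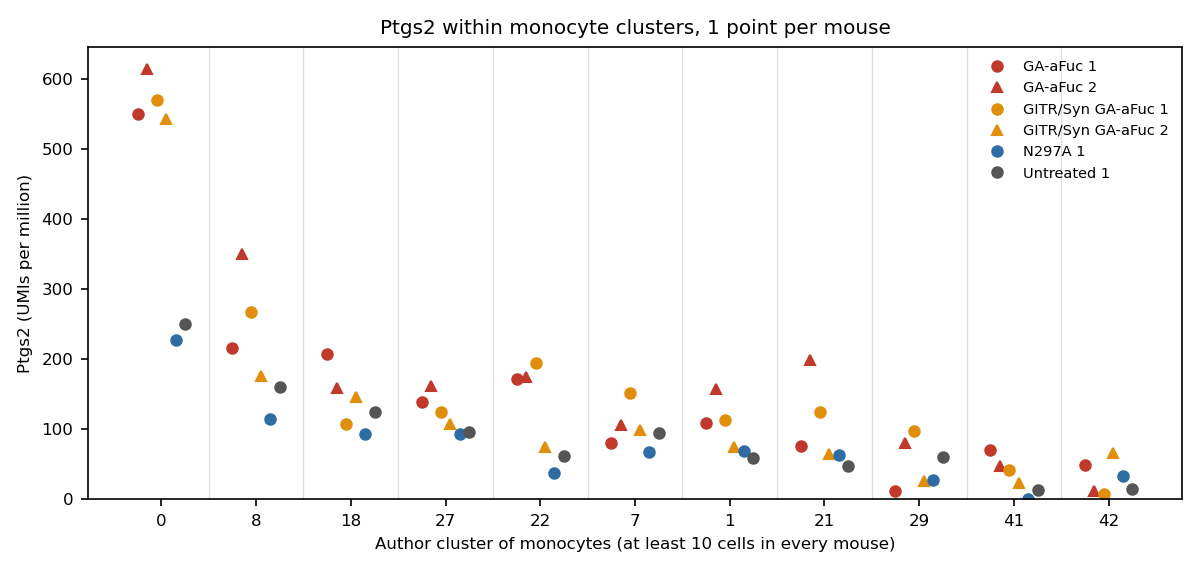
Ptgs2 CPM (y axis) within 11 author clusters of monocytes (x axis, ordered by mean level), with 1 point per mouse. In cluster 0 the 4 Fc-enhanced mice sit between 544 and 615 CPM and the other 2 at 228 and 251 CPM.

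Markers of other cells moved with some of these values. The 5 neutrophil markers summed in monocytes to 67.4 and 359 CPM after GA-aFuc, 86.7 and 62.7 CPM after GITR/Syn GA-aFuc, 47.7 CPM after N297A and 61.0 CPM in the Untreated mouse, with 4 or 5 of 5 markers detected. GA-aFuc mouse 2, the highest, also had the highest Ptgs2. In that mouse 7 of 532 monocytes held at least 3 of the markers, against 0 in every other mouse. Without those cells the pooled log2 fold change of Ptgs2 was 1.11 (edgeR adjusted p = 0.0109). Cells with fewer of the markers and free RNA stayed in, so the part of neutrophils in the Ptgs2 difference was not tested. The 4 cDC2 markers, of which 3 or 4 were detected per mouse, summed in monocytes to 46.7 and 60.3, 34.0 and 21.4, 20.9 and 19.6 CPM in the same order of mice. Their part in the Ptgs2 difference was not tested.

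The other synthases gave values in the same direction in monocytes, and none passed. Ptgs1 stood at 22.2 and 13.9 CPM with GA-aFuc, 24.2 and 9.81 CPM with GITR/Syn GA-aFuc, 7.63 CPM with N297A and 7.21 CPM in the Untreated mouse. The pooled difference was 1.17 ± 0.33 log2 (edgeR adjusted p = 0.236). The 2 highest Ptgs1 values belong to the 2 mice with high Xist. With a term for those mice, the Ptgs1 difference was 0.65 log2 and that of Ptgs2 1.08 log2. N297A and Untreated both had low Xist. In a fit with this term the pooled difference therefore rests mainly on GA-aFuc mouse 2 and GITR/Syn GA-aFuc mouse 2 against those 2 mice. That fit called 232 monocyte genes higher and 8 lower, and it was added after the data were seen. Without GA-aFuc mouse 1, GA-aFuc mouse 2 or GITR/Syn GA-aFuc mouse 2, the pooled Ptgs1 difference passed, at 0.99, 1.32 and 1.42 log2 (edgeR adjusted p = 0.0056, 1.24e-05 and 0.0289). Those fits called 2.54, 1.67 and 1.22% of all monocyte genes, and the fit with the Xist term 2.01%, against 0.344% with all 6 mice and no such term. Fits with a mouse left out or a term added have fewer degrees of freedom for the spread and were not tested on simulated data. Nothing is read from a call that they make.

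Ptges stood at 8.78 and 7.94 CPM with GA-aFuc, 6.53 and 11.9 CPM with GITR/Syn GA-aFuc, 3.39 CPM with N297A and 5.15 CPM in the Untreated mouse. The Ptges difference was 1.05 ± 0.32 log2 (edgeR adjusted p = 0.296). It passed without GA-aFuc mouse 2 (edgeR adjusted p = 0.0461) and with the Xist term (adjusted p = 0.00883), the fits that called 1.67 and 2.01% of genes. Tbxas1 stood at 242 and 242 CPM, 210 and 160 CPM, 143 CPM and 150 CPM in the same order, a difference of 0.49 ± 0.15 log2 (edgeR adjusted p = 0.294). Of the 9 genes tested, these 4 separated the Fc-enhanced mice from the other 2 and Hpgds, Ptger2, Ptger4, Alox5ap and Ltc4s did not, against a background of 11.4% of genes. Alox5ap ran the other way at −0.28 ± 0.15 log2 (edgeR adjusted p = 0.645), with 372 and 449 CPM, 378 and 406 CPM, 536 CPM and 419 CPM, and the groups overlapped. Hpgds, Ptger2, Ptger4 and Ltc4s lay between 0.07 and 0.33 log2. Alox5 was too low to be tested in monocytes. Of 9 genes tested, 4 had an unadjusted p under 0.05, against 8.54% of all monocyte genes.

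In macrophages 0 of the 10 genes passed edgeR in the pooled contrast, in which 0% of 14340 genes passed. Unadjusted p-values under 0.05 were found for 2 of them, against 3.33% of all macrophage genes, and DESeq2 called 0. Ptgs2 stood at 25.1 and 72.9 CPM with GA-aFuc, 42.1 and 25.1 CPM with GITR/Syn GA-aFuc, 20.7 CPM with N297A and 19.0 CPM in the Untreated mouse, a difference of 0.96 ± 0.40 log2 (edgeR adjusted p = 0.930). GA-aFuc mouse 2 stood apart from GA-aFuc mouse 1, and it was also the highest for Ptges, at 7.54 CPM against 1.80 to 3.17 CPM in the other 5 mice. In macrophage cluster 9, where Ptgs2 was highest, the values were 55.5 and 327 CPM, 95.1 and 90.9 CPM, 63.7 CPM and 39.7 CPM, and the groups overlapped. Without GA-aFuc mouse 1, Ptgs2 in macrophages differed by 1.25 log2 in the pooled contrast, and with the Xist term by 1.17 log2. Those fits leave few mice behind the difference, and no call is read from them.

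Other values were also high in the macrophages of GA-aFuc mouse 2. The 6 monocyte markers, all detected in every mouse, summed to 141 and 811 CPM with GA-aFuc, 148 and 216 CPM with GITR/Syn GA-aFuc, 278 CPM with N297A and 228 CPM in the Untreated mouse. The 4 cDC2 markers, of which 3 or 4 were detected, summed to 16.6 and 42.3, 14.3 and 24.9, 4.77 and 5.29 CPM in the same order of mice. Cluster 9 made up 3.49 and 17.9% of macrophages with GA-aFuc, 1.48 and 5.69% with GITR/Syn GA-aFuc, 6.49% with N297A and 1.91% in the Untreated mouse. Mouse 2 of GA-aFuc was the highest in all 3 measures, as it was for macrophage Ptgs2 and Ptges, and their part in those levels was not tested.

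Ptgs1 in macrophages stood at 89.7 and 51.0 CPM with GA-aFuc, 131 and 68.7 CPM with GITR/Syn GA-aFuc, 46.0 CPM with N297A and 43.1 CPM in the Untreated mouse. The 4 Fc-enhanced mice lay above the other 2, as did 12.6% of 10512 macrophage genes, and the difference was 0.84 ± 0.29 log2 (edgeR adjusted p = 0.930). As in monocytes, the highest values belonged to the 2 mice with high Xist. With the Xist term the Ptgs1 difference was 0.38 log2 (adjusted p = 1), and without GA-aFuc mouse 2 it was 1.01 log2 (edgeR adjusted p = 0.00134), in a fit that called 0.636% of genes. Hpgds, at 156 to 207 CPM over the 6 mice, differed by 0.003 ± 0.15 log2 (edgeR adjusted p = 0.999).

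The treatment effect was not shown to differ between monocytes and macrophages. In a fit with mouse as a block, the monocyte minus macrophage difference for Ptgs2 was 0.24 ± 0.28 log2 in the pooled contrast (edgeR adjusted p = 1). The lowest unadjusted p among the 10 genes over 3 contrasts was 0.0200, for Tbxas1 in GA-aFuc against Untreated (0.40 ± 0.15 log2, adjusted p = 1). In that test 0% of 13857 genes passed. Without GA-aFuc mouse 2, Ptgs2 passed in GA-aFuc against N297A, at 1.17 log2 (edgeR adjusted p = 0.0130), where 0.395% of genes did.

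**Figure D5:**
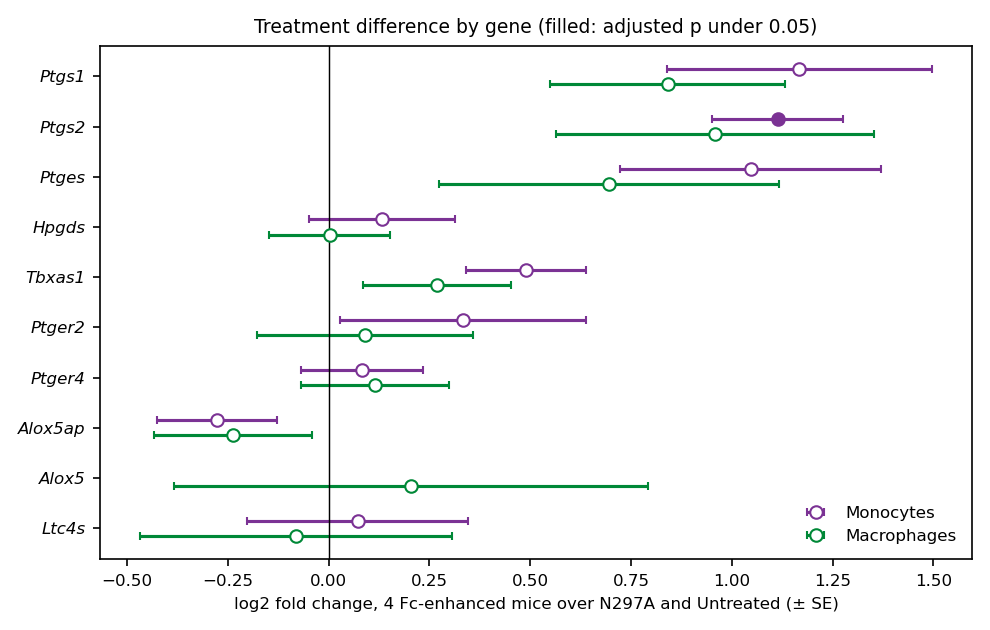
log2 fold change of each gene (y axis) in the 4 Fc-enhanced mice over N297A and Untreated (x axis), with SE, in monocytes and macrophages, where filled points passed. Only Ptgs2 in monocytes (1.11 ± 0.16) is filled, and Hpgds in macrophages lies at 0.003.

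The other comparisons gave 0 calls among these genes. GITR/Syn GA-aFuc against GA-aFuc, which differ in agonism, gave −0.42 ± 0.18 log2 for Ptgs2 and −0.39 ± 0.17 log2 for Tbxas1 in monocytes (edgeR adjusted p = 0.905 and 0.917), where 0.109% of genes passed, 0.101% lower and 0.00839% higher. In macrophages 0.00697% of genes passed in that comparison, with 0 of these 10. Without GA-aFuc mouse 1, macrophage Ptgs2, Ptges and Ptger2 passed there as lower, at −1.16, −1.64 and −1.28 log2, as did Ptger2 in monocytes at −1.21 log2 (edgeR adjusted p = 0.000603 to 0.0289). Those fits called 2.72% of macrophage genes and 1.86% of monocyte genes. GITR/Syn GA-aFuc against Untreated gave 0.74 ± 0.23 log2 for monocyte Ptgs2 (edgeR adjusted p = 1), where 0% of genes passed. N297A against Untreated, 1 mouse each, gave −0.33 ± 0.26 log2 for monocyte Ptgs2 (edgeR adjusted p = 1). Over these 3 comparisons in monocytes, 3, 2 and 0 of the 9 genes had an unadjusted p under 0.05, against 5.06, 2.44 and 2.5% of all genes, and DESeq2 called 0.

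In NK cells Ptger4, a prostaglandin E receptor, stood at 9.14 and 9.15 CPM with GA-aFuc, 16.7 and 8.37 CPM with GITR/Syn GA-aFuc, 31.7 CPM with N297A and 14.1 CPM in the Untreated mouse. The N297A mouse was the highest, and GA-aFuc against N297A gave −1.74 ± 0.48 log2 (edgeR adjusted p = 0.679), where 0.0429% of genes passed. In dendritic cells Hpgds stood at 12.0 and 22.4 CPM with GA-aFuc, 38.9 and 31.2 CPM with GITR/Syn GA-aFuc, 46.4 CPM with N297A and 36.7 CPM in the Untreated mouse. GA-aFuc against N297A gave −1.42 ± 0.41 log2 for Hpgds (edgeR adjusted p = 0.456), where 0.0234% of genes passed. Both GA-aFuc mice were below the other 4, from 7 and 14 UMIs. How many dendritic cell genes show this order was not counted. Without GA-aFuc mouse 2, which leaves 1 GA-aFuc mouse, the Hpgds difference was −1.94 log2. This class pools cDC1, cDC2, mregDC and plasmacytoid cells. Its 4 cDC2 markers, all detected, summed to 556 and 893 CPM with GA-aFuc, 371 and 365 CPM with GITR/Syn GA-aFuc, 348 CPM with N297A and 326 CPM in the Untreated mouse. Its monocyte markers, 4 to 6 of 6 detected, summed to 2992 and 3132, 2429 and 2491, 2818 and 2125 CPM in the same order, and their part was not tested. Within annotated cDC2 alone Hpgds stood at 14.4 and 19.6 CPM with GA-aFuc, 47.9 and 32.2 CPM with GITR/Syn GA-aFuc, 57.8 CPM with N297A and 47.9 CPM in the Untreated mouse, from 6 to 32 UMIs each, so both GA-aFuc mice were lowest there too. Alox5 in NK cells ran from 1.83 to 11.1 CPM in the Fc-enhanced mice and stood at 1.62 and 6.18 CPM with N297A and in the Untreated mouse, which overlap. No gene of the set passed in CD8, NK or dendritic cells under edgeR, and DESeq2 called 0 of those given an adjusted p. Of the 6 tested per class and contrast, 0 to 2 had an unadjusted p under 0.05, against 2.29 to 9.44% of all genes. In CD8 cells 0.0117% of genes passed in GA-aFuc against N297A.

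The wider pathway was read from 39 other genes, from phospholipases to leukotriene receptors. EdgeR called 0 of them in any class and contrast, with 12 to 24 tested per class, and DESeq2 called 0. In monocytes, 15 of the 22 tested were above 0 in the pooled contrast, with a median of 0.09 log2 against 0.02 for all genes. An unadjusted p under 0.05 was found for 5 of the 22, against 8.54% of all monocyte genes. Abcc1, an exporter of leukotriene C, stood at 29.4 and 76.6 CPM with GA-aFuc, 29.6 and 26.6 CPM with GITR/Syn GA-aFuc, 19.5 CPM with N297A and 20.6 CPM in the Untreated mouse. In GA-aFuc against N297A Abcc1 gave 1.40 ± 0.42 log2 (edgeR adjusted p = 0.239). Pla2g4a, the phospholipase that frees arachidonic acid, stood at 120 and 126 CPM, 113 and 115 CPM, 90.4 CPM and 92.0 CPM in the same order, 0.34 ± 0.14 log2 in the pooled contrast (edgeR adjusted p = 0.521). Pla2g7 gave 0.65 ± 0.23 log2, Cysltr2, a leukotriene receptor, 1.03 ± 0.37 log2 and Ggt5 1.99 ± 0.77 log2 in GA-aFuc against N297A (edgeR adjusted p = 0.353 to 0.425).

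In macrophages 24 of the 39 were tested, with a median of −0.03 log2 in the pooled contrast against 0.02 for all genes. Abcc1 there stood at 21.4 and 56.5 CPM with GA-aFuc, 24.0 and 22.9 CPM with GITR/Syn GA-aFuc, 21.0 CPM with N297A and 16.9 CPM in the Untreated mouse, so that GA-aFuc mouse 2 alone was high. Ptgir, the prostacyclin receptor, had 26 UMIs in GA-aFuc mouse 2 and 0 to 5 in each of the other 5 mice. In dendritic cells Ltb4r1, a leukotriene B receptor, stood at 31.0 and 83.2 CPM with GA-aFuc, 9.72 and 21.5 CPM with GITR/Syn GA-aFuc, 19.4 CPM with N297A and 12.6 CPM in the Untreated mouse. GA-aFuc against Untreated gave 2.15 ± 0.64 log2 for Ltb4r1 (edgeR adjusted p = 0.458). Pla2g4a in dendritic cells stood at 13.8 and 20.8 CPM, 31.1 and 24.7 CPM, 41.3 CPM and 40.2 CPM in that order of mice, −1.23 ± 0.40 log2 (edgeR adjusted p = 0.606). In dendritic cells 12 of the 39 were tested.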

How the data were processed

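The values are the deposited UMI counts per feature and droplet of 1 hashed library, from Cell Ranger 9.0.0 as the file headers state. The submitters' processing notes name builds GRCh38 and GRCm39. All 72308 features and all barcodes are in the matrix. The deposited annotation table gives treatment, cell type and cluster. Not given in the sources used here is the method behind these labels. Doublets were not called. Mice were taken from 6 runs of rising barcodes in that table, and the leading hashtag matched the mouse in 10476 of 10476 cells. Human features held 0.591% of UMIs.

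CPM are UMIs per 1000000 UMIs of the cells, computed here, for cell types with at least 10 cells in a mouse. Counts were summed per mouse for macrophages, monocytes, CD8, NK and dendritic cells, and tested with edgeR 4.0.16 (filterByExpr, TMM, glmQLFit, glmQLFTest) in 1 fit of the 6 mice per class, with Benjamini-Hochberg adjustment over all genes of the class. SE was derived from the log2 fold change and its F statistic. On simulated monocyte counts for the pooled contrast the test found 73 of 100 genes simulated with a 2-fold change and 100 of 100 with an 8-fold change, with 26 false calls over 11920 genes, so calls can hold more false ones than the threshold states. For macrophages it found 51 and 100, with 26 false calls over 14340 genes. Alternatives were DESeq2 1.42.0, other filters, scalings and cell sets, and each mouse left out.

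The genes, lists and tests were chosen with earlier results of these data known. Named genes are the 10 of the set, up to 4 pathway genes with the smallest p per class in GA-aFuc against Untreated and against N297A, of which not every one is named, and the 3 genes closest to each gene across clusters. Dpep2, whose symbol has 2 feature IDs, was left out of the pathway list of 40. Xist, Uty, the leading genes of cluster 0 and the pooled-contrast value of Pla2g4a were picked with their values in view. Replicates are mice, all in 1 library. The spread behind the p-values comes from the 2 GA-aFuc mice and the 2 GITR/Syn GA-aFuc mice, since the other treatments have 1 mouse each. Each of these pairs holds 1 mouse with high Xist and 1 with low Xist. The spread between mice of a treatment therefore cannot be told apart from that difference.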

Additional observations from a re-analysis of the deposited data

Results flagged for a closer look

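Some barcodes outside the authors' annotation carried these genes at levels above every annotated type with at least 50 cells. They were found among 5815 unannotated barcodes with at least 500 UMIs, by markers alone, and the 6 hashtags all occur among them. Doublets and damaged cells were not removed, and their part was not tested.

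The 178 barcodes with UMIs of at least 3 of 6 mast cell markers had a median of 4842 UMIs. Alox5 stood at 166 CPM in them, with a UMI in 56.7% of barcodes, against 6.91 CPM in NK cells, the highest annotated type. By leading hashtag Alox5 ran from 110 to 288 CPM over the 6 mice. Alox5ap stood at 832 CPM, against 547 CPM in cDC2, and Hpgds at 231 CPM, against 174 CPM in macrophages. Ptges stood at 31.6 CPM, against 7.33 CPM in monocytes, but from 37 UMIs in 8 barcodes, and from 0 to 106 CPM over the hashtags. Without the hashtag of the N297A mouse Ptges stood at 12.8 CPM, from 12 UMIs.

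The 72 barcodes with UMIs of at least 4 of 5 neutrophil markers had a median of 3107 UMIs. Ptgs2 stood at 543 CPM in them, with a UMI in 73.6% of barcodes, against 155 CPM in monocytes. Alox5 stood at 31.8 CPM, against 6.91 CPM in NK cells, and Ptges at 14.8 CPM, against 7.33 CPM in monocytes. Of these 72 barcodes, 40 had the hashtag of GA-aFuc mouse 2. Without them Ptgs2 stood at 289 CPM, and Ptges at 9.31 CPM from 3 UMIs. By hashtag Ptgs2 ran from 142 to 1088 CPM, and the 1 hashtag below the monocyte level held 4 barcodes. Without the 10 barcodes of GITR/Syn GA-aFuc mouse 1, Alox5 stood at 19.7 CPM, from 8 UMIs. The macrophage markers summed to 9151 CPM in them.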

How the results depend on the processing

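Of the counts of genes past the threshold, 97 recomputations stayed within 1.5 times, 10 rose above 0, 9 moved otherwise and 4 went to 0. Only GA-aFuc against N297A and the pooled contrast started from a call, 1 each. In the others a count that stayed at 0 is among the 97, so this total does not show that those 2 calls were stable. For GA-aFuc against Untreated (0 calls) the count was 3 without a filter on low counts, 1 with DESeq2, 1 in a fit of the compared treatments alone, 2 with a term for high Xist and 0 to 2 with 1 mouse left out. For GA-aFuc against N297A (1 call) it was 3 without the filter, 2 with the Xist term, 0 without monocyte cluster 0 and 1 to 4 with 1 mouse left out. For GITR/Syn GA-aFuc against GA-aFuc (0 calls) it was 0 to 4 with 1 mouse left out, 4 without GA-aFuc mouse 1. For GITR/Syn GA-aFuc against Untreated (0 calls) it was 1 without the filter. For Fc-enhanced against N297A and Untreated (1 call) it was 5 without the filter, 3 with the Xist term, 0 without cluster 0 and 0 to 4 with 1 mouse left out: 4 without either GA-aFuc mouse, 2 without GITR/Syn GA-aFuc mouse 2, and 0 without GITR/Syn GA-aFuc mouse 1 or N297A. The monocyte against macrophage difference (0 calls) gave 0 to 1 with 1 mouse left out, 1 without GA-aFuc mouse 2. Some of these settings also called a larger share of all genes, as given above for the Xist term and for mice left out. The shares for the other settings are not given, so a rise in these counts is not read as a result about these genes. The causes of these moves were not tested. Monocyte Ptgs2 kept its direction in all of these, from 0.80 to 1.28 log2 in the pooled contrast. Levels stayed within 1 SD in 99 recomputations, and 1 moved further: Ltc4s in cDC2 was 17.5 CPM in thinned cells, against 23.7 CPM. The Xist term, the neutrophil-marker cells and cluster 0 were chosen after the data were seen. No paired analysis was possible because the mouse numbers were given here in the order of the annotation's runs and pair no mice. Leaving out the N297A or the Untreated mouse ends each contrast that rests on it alone, and N297A against Untreated could not be fitted on its own.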

Other observations

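In the mast-marker barcodes Ltc4s stood at 15.4 CPM, against 23.4 CPM in cDC2, and Ptger4 at 11.1 CPM, against 41.6 CPM in macrophages. Tbxas1 stood at 41.8 CPM in them, against 241 CPM in macrophages, and Ptgs1 at 53.7 CPM, against 73.7 CPM. In the neutrophil-marker barcodes Alox5ap stood at 407 CPM (481 CPM without the hashtag of GA-aFuc mouse 2), against 432 CPM in monocytes. Hpgds stood at 78.4 CPM in them, against 42.3 CPM in monocytes and 174 CPM in macrophages. Without the 6 barcodes of the Untreated mouse Hpgds stood at 55.1 CPM, from 19 UMIs. These barcodes also held macrophage markers at 9151 CPM, and their part in the Hpgds level was not tested.

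Among the smaller annotated types, the 64 CD4 cells had Ptger2 at 18.3 CPM, from 9 UMIs, and Ptger4 at 63.1 CPM, from 31 UMIs. The 24 cells called Tregs had Ptger2 at 31.9 CPM, from 7 UMIs, and Ptgs2 at 0 UMIs, which allows up to 13.7 CPM. The 55 mregDC had Ltc4s at 15.8 CPM, from 9 UMIs, and Tbxas1 in 18.2% of cells, against 56.0% of cDC2.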
